A study of Mus musculus with 8 samples.

Results

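The 9 alpha and beta tubulin genes Tuba1a, Tuba1b, Tuba1c, Tuba4a, Tuba8, Tubb2a, Tubb4b, Tubb5 and Tubb6, together with Tppp3, were followed in mouse quadriceps. They are 10 rows, found by gene name, of a table of 47643 genes. Muscle came from C57BL/6 mice, 4 labelled Nup210+/+ (wild type) and 4 labelled Nup210-/-, and each mouse gave 1 library of polyadenylated RNA read from 1 end in 75 bases. Nup210 is a membrane nucleoporin of the nuclear pore, and the question was how quadriceps RNA differs when the gene is ablated. According to the study's methods, Cre driven from the Hprt locus removed a loxP-flanked exon early in the gene in the whole animal, so no cell type was spared. The age and sex of these mice are not given in the sources used here. The 10 genes were picked with values from these same libraries already known, so their genotype differences are given below as a description. No p-value is read for them, and counts from the fit across all genes are printed only beside the share over all genes.

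Microtubules are hollow polymers of alpha and beta tubulin heterodimers, and mammals carry several genes, called isotypes, for each partner. In a muscle fiber microtubules form a grid under the membrane and a network around the nuclei, position organelles and bear mechanical load, whereas in dividing cells they form the spindle. Isotypes differ in where they are used: Tuba4a and Tuba8 are prominent in striated muscle, Tuba1b and Tubb5 are common in growing and dividing cells, and Tuba1a is best known from neurons and developing tissue. Tppp3 is a small protein of the tubulin polymerization-promoting family that is known as a mark of cells of the tendon sheath and fascia.

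The alpha isotypes Tuba1a, Tuba1b and Tuba1c lie close together in a cluster and are so alike that short reads can fit more than 1 of them. The coding stretch from base 376 to base 450, in exon 4 of each gene, is shown for the 5 alpha genes because it has exactly the length of a read. Bases are written 5′ to 3′ on the coding strand of GRCm38, and capitals mark bases that differ from Tuba1b.
Tuba1b, chr15:98932488-98932562, minus strand: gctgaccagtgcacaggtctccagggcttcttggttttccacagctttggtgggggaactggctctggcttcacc
Tuba1a, chr15:98950940-98951014, minus strand: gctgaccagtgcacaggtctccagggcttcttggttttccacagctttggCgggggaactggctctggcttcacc
Tuba1c, chr15:99037035-99037109, plus strand: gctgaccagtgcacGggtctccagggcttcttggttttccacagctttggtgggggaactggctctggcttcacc
Tuba4a, chr1:75216519-75216593, minus strand: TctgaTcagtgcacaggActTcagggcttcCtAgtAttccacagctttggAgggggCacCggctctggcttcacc
Tuba8, chr6:121222734-121222808, plus strand: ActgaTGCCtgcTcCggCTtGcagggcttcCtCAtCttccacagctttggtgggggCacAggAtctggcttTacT
Here Tuba1a and Tuba1c each differed from Tuba1b at 1 base, Tuba4a at 10 bases and Tuba8 at 19 bases. The beta genes were further apart from each other than Tuba1a, Tuba1b and Tuba1c were. Coding bases 278 to 352, also in exon 4, are shown for 3 of them, with capitals where they differ from Tubb5.
Tubb5, chr17:35835965-35836039, minus strand: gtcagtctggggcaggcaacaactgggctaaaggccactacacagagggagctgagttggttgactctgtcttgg
Tubb4b, chr2:25223294-25223368, minus strand: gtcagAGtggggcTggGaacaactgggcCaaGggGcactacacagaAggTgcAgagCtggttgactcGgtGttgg
Tubb2a, chr13:34075454-34075528, minus strand: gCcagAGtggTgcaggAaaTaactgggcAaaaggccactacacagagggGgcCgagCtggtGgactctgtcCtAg
Tubb4b and Tubb2a each differed from Tubb5 at 13 bases of this stretch.

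Over the whole coding sequence (GENCODE M21 on GRCm38), identity was 98.3% between Tuba1a and Tuba1b, 97.9% between Tuba1b and Tuba1c and 97.1% between Tuba1a and Tuba1c. Pairs of alpha genes ranged from 79.1 to 98.3%, pairs of beta genes from 80.3 to 84.6%, and an alpha gene with a beta gene from 54.8 to 58.4%. Tppp3, which is no tubulin, was 28.3 to 30.5% identical to the others. Of all 75-base windows of the main transcript, 68.2% in Tuba1a, 71.9% in Tuba1b and 56.7% in Tuba1c occurred unchanged in a transcript of another gene. The share was 43.2% in Tubb2a, mostly with Tubb2b, and 37.8% in Tubb4b, mostly with the pseudogene Tubb4b-ps1. It was 0 in Tuba4a, Tuba8, Tubb5, Tubb6 and Tppp3. GENCODE M21 is not the Ensembl release on which the authors ran RSEM, so the shares in their reference may differ. Gm49450, Gm3226 and Tubb2a-ps2, which share windows here, were not found by name among the 47643 genes. With sequences this alike, the split of reads among Tuba1a, Tuba1b and Tuba1c is an estimate of RSEM, and their sum is given beside the single genes.

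The labels were checked against Nup210 itself. Its TPM (a share of transcripts, in which the read estimate of a gene is divided by transcript length and every library has the same total) was 9.54, 10.79, 11.93 and 8.81 in the libraries labelled Nup210-/- and 5.71, 10.11, 9.19 and 6.71 in the libraries labelled Nup210+/+. The transcript was thus not lower in the libraries labelled Nup210-/-, a total over the gene does not show whether the targeted exon was present, and every direction below rests on the labels. Between 18185 and 19357 genes were above 0 TPM in a library, and read depth is unknown, so no counting interval can be given for a single value. Nup210+/+ replicate 2 stood apart in 6 markers of early granulocytes, the proteases and granule proteins Ctsg, Elane, Mpo and Prtn3 with Cebpe and Ms4a3, which summed to 381.69 TPM there and to 2.12 TPM or less in the other 7 libraries. It stood apart in 10 dividing cell markers too, at 126.38 TPM against 28.1 to 33.9 TPM. For the 10 genes, the main values that rest on this library are also given without it. In bulk muscle, fewer cells of a type and less RNA per cell cannot be told apart.

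The 10 genes spanned a wide range of levels. By mean TPM over the 8 libraries the order was Tuba4a, Tubb4b, Tuba8, Tuba1a, Tuba1b, Tppp3, Tubb5, Tubb6, Tubb2a and Tuba1c. The step from Tuba4a to Tubb4b, from Tubb4b to Tuba8 and from Tuba8 to Tuba1a held between any pair of libraries, as did those from Tubb5 to Tubb6 and from Tubb6 to Tubb2a. The ranges of the neighbours Tuba1a and Tuba1b, Tuba1b and Tppp3, Tppp3 and Tubb5, and Tubb2a and Tuba1c overlapped. Tppp3 was below Tuba1a and above Tubb5 by mean, but its place next to Tuba1b changed from library to library, with Tuba1b the higher of the pair in 2 of 8 libraries.

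**Figure D1:**
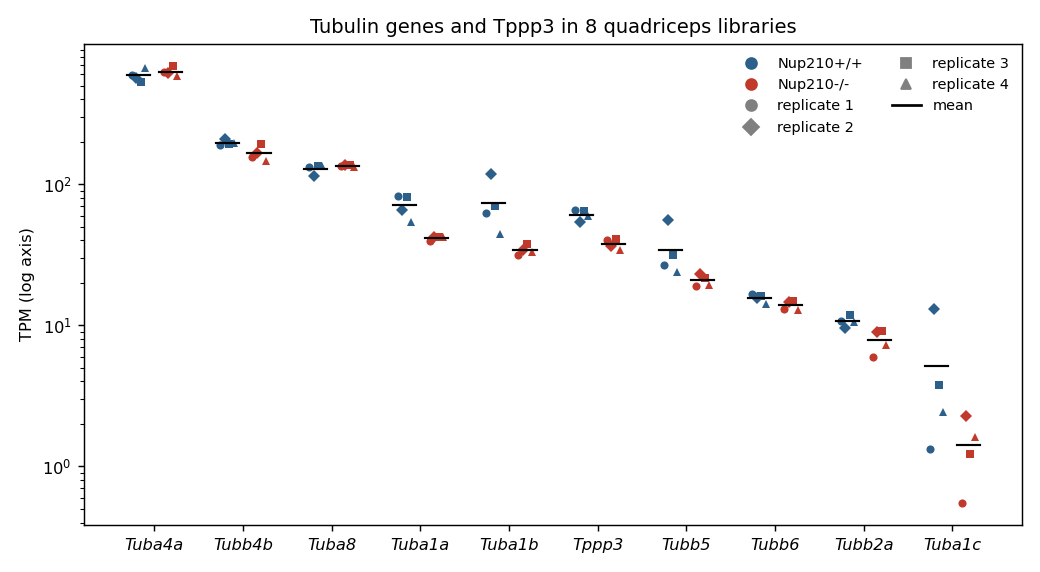
TPM of each gene (vertical axis, logarithmic) in the 4 libraries labelled Nup210+/+ (blue) and the 4 labelled Nup210-/- (red), with replicates as marker shapes and group means as lines. Genes run from Tuba4a at about 600 TPM down to Tuba1c, and the diamonds of Nup210+/+ replicate 2 lie far above the rest of their group for Tuba1b (119.09 TPM), Tubb5 (55.72 TPM) and Tuba1c (12.97 TPM).

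Of the alpha tubulins, Tuba4a and Tuba8, the pair most used by muscle fibers, overlapped between genotypes. Tuba4a (chr1:75214228-75219865, minus strand) was at 622.7, 610.44, 690.31 and 580.37 TPM in Nup210-/- and at 598.72, 570.47, 534.65 and 666.81 TPM in Nup210+/+. The groups overlapped, with means of 626 ± 46.4 and 593 ± 56.0 TPM (SD, n = 4 each). Its log2 fold change (Nup210-/- minus Nup210+/+, on log2 of scaled TPM + 1) was 0.18 with a standard error of 0.107, and it was 0.09 without Nup210+/+ replicate 3 and 0.27 without Nup210+/+ replicate 4. Tuba8 (chr6:121210696-121226854, plus strand), an isotype known from heart, skeletal muscle and testis, was at 135.46, 137.05, 137.57 and 132.55 TPM in Nup210-/- and at 132.99, 113.91, 135.46 and 133.85 TPM in Nup210+/+. All libraries but Nup210+/+ replicate 2 lay within 132.55 to 137.57 TPM. Its log2 fold change was 0.17 (SE 0.0748), and 0.11 without that library. Fitted on TPM as deposited, the log2 fold change was 0.08 for Tuba4a and 0.07 for Tuba8. Exons of Tuba4a overlap Stk16, and those of Tuba8 overlap Gm15856, both on the opposite strand. Whether strand was used in the counting is not given in the sources used here.

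The 3 clustered alpha genes had lower estimates in Nup210-/-, of which Tuba1a and Tuba1b did not overlap between genotypes. Tuba1a (chr15:98949837-98953703, minus strand) was at 39.5, 42.01, 41.97 and 42.29 TPM in Nup210-/- and at 82.37, 66.14, 80.94 and 54.21 TPM in Nup210+/+. All 4 knockout libraries lay below all wild-type libraries, and the knockout values varied little (41.4 ± 1.3 TPM) while the wild-type values spread widely (70.9 ± 13.3 TPM). The ratio of the means was 0.584 and the log2 fold change −0.65 (SE 0.0994). Tuba1b (chr15:98931425-98934565, minus strand), the isotype linked to growth, was at 31.55, 34.02, 37.7 and 32.98 TPM in Nup210-/- and at 62.32, 119.09, 69.7 and 44.39 TPM in Nup210+/+. The means were 34.1 ± 2.63 and 73.9 ± 32.0 TPM, with a log2 fold change of −0.91 (SE 0.228). Nup210+/+ replicate 2 was the highest library, and without it the wild-type mean was 58.8 ± 13 TPM (n = 3) and the log2 fold change −0.66.

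Tuba1c (chr15:99029891-99038110, plus strand) was the rarest gene of the set. It was at 0.55, 2.27, 1.22 and 1.62 TPM in Nup210-/- and at 1.33, 12.97, 3.78 and 2.44 TPM in Nup210+/+, so the groups overlapped and 1 library held most of the wild-type signal. The log2 fold change was −0.98 (SE 0.488) with all libraries and −0.47 without Nup210+/+ replicate 2. Summing Tuba1a, Tuba1b and Tuba1c removes the uncertain split among these 3, but not that with other gene models such as Gm14150 and Gm17383. The summed level was 76.9 ± 3.91 TPM in Nup210-/- (71.6 to 80.9) and 149.9 ± 39.8 TPM in Nup210+/+ (101 to 198). The log2 fold change of the sum was −0.82 (SE 0.149), and without Nup210+/+ replicate 2 the wild-type sum was 133.8 ± 28.7 TPM, still with no overlap. The ratio of Tuba1b to Tuba1a was 0.78 to 0.90 in the 4 knockout libraries. It was 0.757, 0.861 and 0.819 in Nup210+/+ replicates 1, 3 and 4 and 1.80 in replicate 2, so of the 8 libraries only that one held more Tuba1b than Tuba1a. In GENCODE M21, exons of both genes overlap the gene model Gm49450 on the same strand, and those of Tuba1b overlap Gm41396 on the opposite strand. Gm49450 was not found by name in the deposited data. Gm14150, an alpha tubulin gene model that shares 39.8% of the Tuba1b windows, was at 8.26 TPM in the same library and at 1.27 TPM or less in the other 7.

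Among the beta tubulins, Tubb4b carried most of the signal. Tubb4b (chr2:25222160-25224702, minus strand), a broadly used isotype, was at 155.88, 166.33, 192.18 and 146.47 TPM in Nup210-/- and at 189.26, 210.5, 192.73 and 196.22 TPM in Nup210+/+. Nup210-/- replicate 3 reached into the wild-type range, and the other 3 knockout libraries lay below it. The means were 165.2 ± 19.7 and 197.2 ± 9.33 TPM, with a log2 fold change of −0.17 (SE 0.0824). Its exons overlap Fam166a on the opposite strand. Tubb5 (chr17:35833921-35838306, minus strand), the beta isotype most associated with dividing cells, was at 19.04, 23.02, 21.69 and 19.41 TPM in Nup210-/- and at 26.87, 55.72, 31.44 and 23.8 TPM in Nup210+/+. No library of one genotype reached the other, although the gap between the highest knockout library and the lowest wild-type library was less than 1 TPM. The log2 fold change was −0.54 (SE 0.214), and −0.28 without Nup210+/+ replicate 2, whose Tubb5 was the highest of all.

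Tubb2a and Tubb6 were minor isotypes in this muscle. Tubb2a (chr13:34074274-34078007, minus strand), better known from brain, was at 5.96, 9.03, 9.18 and 7.21 TPM in Nup210-/- and at 10.69, 9.56, 11.89 and 10.62 TPM in Nup210+/+. The groups did not overlap, and the log2 fold change was −0.33 (SE 0.117). Its near copy Tubb2b was at 2.46 TPM or less in all libraries. Tubb6 (chr18:67390717-67402749, plus strand), a beta isotype reported to be raised in regenerating and dystrophic muscle, was at 13.11, 14.59, 14.8 and 12.83 TPM in Nup210-/- and at 16.77, 15.55, 16.13 and 14.09 TPM in Nup210+/+. The groups overlapped through Nup210+/+ replicate 4, and the log2 fold change was −0.08 (SE 0.0655), or −0.04 without Nup210+/+ replicate 1. On TPM as deposited it was −0.17, since the median of all genes was itself at −0.08 on that scale and at −0.01 after scaling.

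The isotypes were added up for each partner of the heterodimer, on TPM as deposited. Summed alpha tubulin, over 8 genes of which 3 were at 0 throughout, was 838.5 ± 50.2 TPM in Nup210-/- and 871.6 ± 33.1 TPM in Nup210+/+, and the ranges overlapped. Summed beta tubulin, over 8 genes, was 210.0 ± 22.7 TPM (188 to 240) in Nup210-/- and 262.0 ± 22.6 TPM (248 to 295) in Nup210+/+, without overlap. The ratio of alpha to beta transcripts was accordingly 3.79 to 4.21 in Nup210-/- and 2.99 to 3.63 in Nup210+/+. Without Nup210+/+ replicate 2 the wild-type beta sum was 250.9 ± 5.38 TPM and the ratio 3.21 to 3.63. On scaled TPM, the scale of the log2 fold changes, the beta sums were 201 to 239 in Nup210-/- and 229 to 285 in Nup210+/+ and overlapped. The mean alpha sum was then 865.7 ± 31.5 in Nup210-/- and 846.2 ± 86.4 in Nup210+/+, so the order of the alpha means turned with the scale, while the ratio of alpha to beta does not depend on it.

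Alpha tubulin was made up more of the muscle isotypes in the libraries labelled Nup210-/-. Tuba4a and Tuba8 together made up 90.3 to 91.4% of alpha tubulin TPM there and 77.5 to 88.8% in Nup210+/+, or 81.3 to 88.8% without replicate 2. Tuba1a held 4.96 ± 0.331% and 8.18 ± 1.76%, and Tuba1b 4.06 ± 0.174% and 8.49 ± 3.64%, in Nup210-/- and Nup210+/+ (SD, n = 4 each). Without Nup210+/+ replicate 2 the wild-type shares were 8.40 ± 2.08% for Tuba1a and 6.83 ± 1.78% for Tuba1b (n = 3). The beta make-up was closer between genotypes. Tubb4b was 78.6 ± 1.32% and 75.4 ± 3.26% of beta tubulin, and Tubb5 9.93 ± 0.724% and 12.9 ± 4.13%, with overlapping ranges for both. Without Nup210+/+ replicate 2 the wild-type shares were 76.8 ± 2.09% for Tubb4b and 10.9 ± 1.32% for Tubb5 (n = 3). Tubb3, the neuronal isotype, was at most 0.105% of beta tubulin in any library, and Tubb1, the isotype of platelets, at most 0.0894%.

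**Figure D2:**
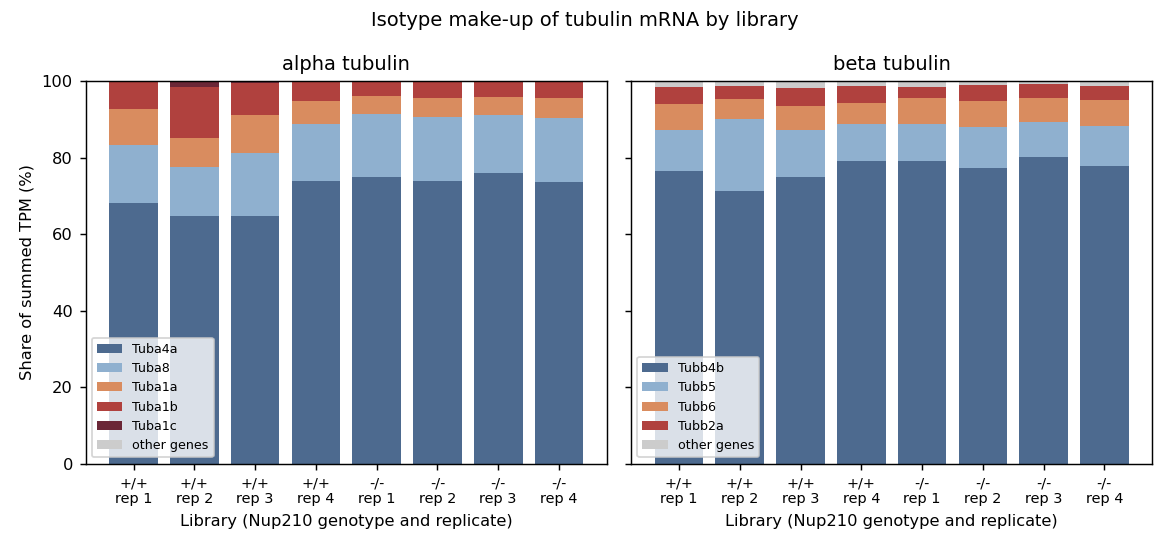
Share of summed TPM (percent) taken by each alpha isotype (left) and beta isotype (right), 1 bar per library, with Nup210+/+ replicates first. The Tuba4a and Tuba8 segments reach 90.3 to 91.4% in the 4 Nup210-/- libraries and stop at 77.5 to 88.8% in the 4 Nup210+/+ libraries. Without Nup210+/+ replicate 2 the wild-type range is 81.3 to 88.8%.

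Tppp3 (chr8:105467493-105471526, minus strand) was at 40.17, 36.59, 40.72 and 34.31 TPM in Nup210-/- and at 65.21, 53.77, 64.51 and 59.59 TPM in Nup210+/+. The groups did not overlap, and the spread within each was small, with means of 37.9 ± 3.04 and 60.8 ± 5.29 TPM and a ratio of 0.624. The log2 fold change was −0.57 (SE 0.0808). Unlike Tuba1b and Tubb5, Tppp3 was at its lowest wild-type value in Nup210+/+ replicate 2, and without that library the log2 fold change was −0.63. No exon of Tppp3 or window of its transcript was shared with another gene.

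All 10 genes passed the filter, which kept the 14229 genes whose TPM averaged 0.5 or more. The estimate was lower in Nup210-/- for 8 of 10 genes and for 51.3% of all genes tested, and the 2 exceptions were Tuba4a and Tuba8. The median log2 fold change was −0.43, or −0.33 without Nup210+/+ replicate 2. In 5 genes, Tuba1a, Tuba1b, Tubb2a, Tubb5 and Tppp3, all knockout libraries were below all wild-type libraries, as in 4.6% of all genes, and in none were they all above, as in 4.78% of all genes. The same number, 5, was found without Nup210+/+ replicate 2. Across all genes limma gave an adjusted p under 0.05 to 9 genes lower in Nup210-/- (0.0633% of those tested) and 7 higher (0.0492%), and Tppp3 was 1 of the 9. It was among those called in 5 of 16 other fits and in 0 of the 8 that left out 1 library. An unadjusted p under 0.05 was given to 7.18% of all genes in the lower and 7.0% in the higher direction, and to 5 and 0 of the 10. Because the 10 were selected on this contrast, nothing is read from these counts.

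**Figure D3:**
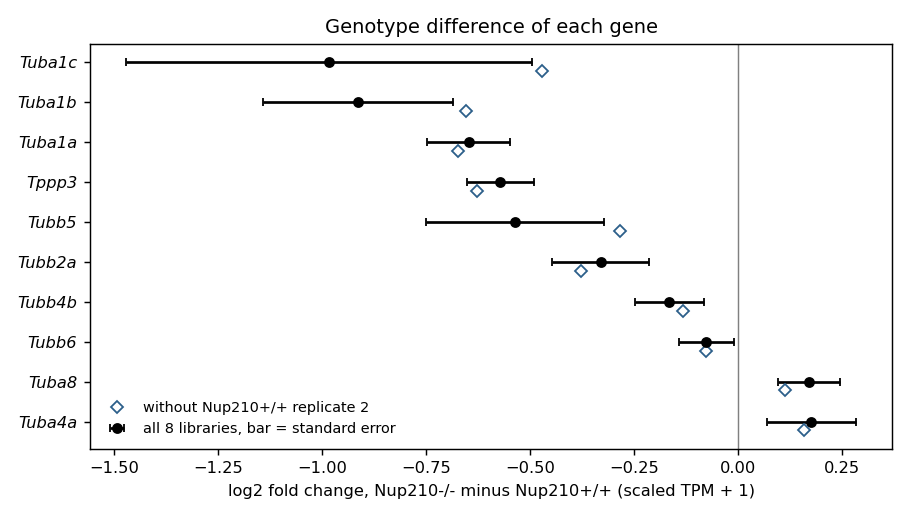
Log2 fold change of each gene (horizontal axis, Nup210-/- minus Nup210+/+, on log2 of scaled TPM + 1). Black points with bars are all 8 libraries with their standard error, and open diamonds leave out Nup210+/+ replicate 2. Tubb5 moves from −0.54 to −0.28 and Tuba1b from −0.91 to −0.66, whereas Tppp3 and Tuba1a stay near −0.6.

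The isotypes varied within a genotype along different lines. Nup210+/+ replicate 2 was the highest library for Tuba1b, Tuba1c, Tubb4b and Tubb5, and the lowest wild-type library for Tuba8, Tubb2a and Tppp3. Within Nup210+/+, replicate 4 held the lowest Tuba1a, Tuba1b, Tubb5 and Tubb6 and the highest Tuba4a, and for the first 3 of these it was the wild-type library nearest to the knockout libraries. On TPM as deposited, the spread did not follow genotype in 1 direction. Whether this holds on scaled TPM, the scale of the log2 fold changes, was not examined. The coefficient of variation of Tuba1a was 3.14% in Nup210-/- and 18.8% in Nup210+/+, and that of Tuba1b 7.7% and 43.3%, or 22.1% in Nup210+/+ without replicate 2. It lay the other way for Tubb2a, at 19.7% and 8.91%, and for Tubb4b, at 11.9% and 4.73%, and was nearly equal for Tubb6 (7.27% and 7.32%) and Tppp3 (8.01% and 8.71%).

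Markers of the cells that could bring these transcripts into whole muscle were read in the same libraries. All marker sums are on TPM as deposited, whereas the estimates are on scaled TPM. Whether the sums overlap on scaled TPM was not examined. Muscle fiber markers, 10 of 10 tested and 10 with a higher estimate in Nup210-/-, summed to 99175 to 106980 TPM there and to 92049 to 98949 TPM in Nup210+/+, so every library was dominated by skeletal muscle. Leukocyte markers (10 of 10 genes tested, all with a lower estimate) summed to 141 to 158 TPM in Nup210-/- and 171 to 334 TPM in Nup210+/+. Of these, Cd52, a lymphocyte and myeloid surface protein, passed the test (log2 fold change −0.81, limma adjusted p = 0.0490). Over all genes tested, 0.0633% passed in the lower direction. The markers were chosen with earlier results of these data known, so nothing is read from this call. Fibroblast markers (8 of 8 tested, all with a lower estimate) summed to 722 to 851 TPM and 860 to 1491 TPM, again without overlap. Tendon and fascia markers, the cell class in which Tppp3 is best known (8 of 8 tested, all with a lower estimate), summed to 93.9 to 145.6 TPM in Nup210-/- and 130.3 to 221.3 TPM in Nup210+/+, with overlap. Their estimates ran from −0.98 for Comp to −0.09 for Scx and −0.06 for Mkx.

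Dividing cell markers (9 of 10 tested, all with a lower estimate) summed to 28.1 to 31.8 TPM in Nup210-/- and, apart from replicate 2, to 32.6 to 33.9 TPM in Nup210+/+. Pcna alone held most of these sums. It was at 21.2 to 25.1 TPM in Nup210-/- and, apart from replicate 2, at 24.7 to 26.1 TPM in Nup210+/+. Granulocyte precursor markers (6 of 6 tested, all with a lower estimate) summed to 0.31 to 1.57 TPM and, apart from replicate 2, to 0.31 to 2.12 TPM. Erythroid and platelet markers (5 of 6 tested, all with a lower estimate) summed to 504 to 1538 TPM and 736 to 3104 TPM. Of these, Pf4, a platelet and macrophage chemokine, passed the test (log2 fold change −0.53, limma adjusted p = 0.0490). As with Cd52, nothing is read from this call. With 1 library left out, Cd52 passed in 1 of 8 fits and Pf4 in 0 of 8, with adjusted p up to 0.226 and 0.229 over all alternatives. Endothelial markers (7 of 7 tested, 4 with a lower estimate) summed to 77.5 to 87.2 TPM and 81.5 to 100 TPM, Schwann cell markers (6 of 7 tested, 5 with a lower estimate) to 44.3 to 56.2 TPM and 52.0 to 69.2 TPM, and satellite cell and new fiber markers (7 of 7 tested, 3 with a lower estimate) to 30.7 to 34.7 TPM and 31.1 to 39.2 TPM. No marker was at 0 in all 8 libraries. The part of these cell classes in the levels of the tubulins and Tppp3 was not tested.

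**Figure D4:**
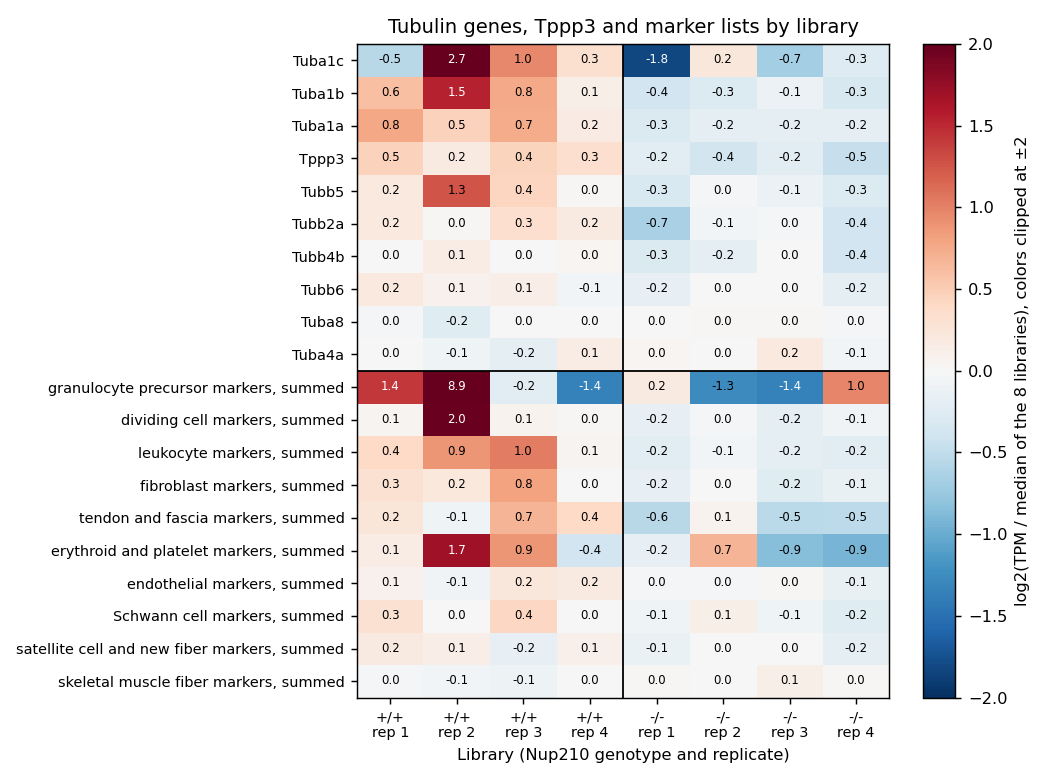
Log2 of TPM over the median of the 8 libraries (color and printed value) for the 10 genes (top) and for the summed TPM of each marker list (bottom), by library. In Nup210+/+ replicate 2, Tuba1b (1.5) and Tubb5 (1.3) stand high together with the granulocyte precursor (8.9) and dividing cell (2.0) markers, while Tppp3 is at 0.2.

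The genes whose pattern over the 8 libraries was most like 3 of the set were listed by Pearson's r of log2 values among 8387 genes that averaged 5 TPM or more. The 2 genotypes form separate clusters for these genes, so r includes that separation. For Tuba1a they were Anxa2 (r = 0.969), BC031181 (r = 0.967), Slc38a2 (r = 0.955), Mcfd2 (r = 0.954) and Lpar1 (r = 0.952). For Tuba1b they were Prelid1 (r = 0.978), Il10rb (r = 0.976), Mob1a (r = 0.975), Acsl5 (r = 0.974) and Rasgrp2 (r = 0.970). For Tppp3 they were Xirp1 (r = 0.975), an actin-binding protein of muscle attachments, Slc38a2 (r = 0.969), Ifrd1 (r = 0.966), Fbn1 (r = 0.965), a protein of extracellular microfibrils, and Tnfrsf12a (r = 0.964). Slc38a2, a neutral amino acid transporter, was on the lists of both Tuba1a and Tppp3. On deviations from the genotype means, r was 0.668 to 0.773 for the Tuba1a list and 0.637 to 0.824 for the Tppp3 list. It was 0.912 to 0.940 for the Tuba1b list. Nup210+/+ replicate 2 was the highest library for Tuba1b (119.09 TPM), and r of these lists without that library was not computed.

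Promoters of 8 of the 10 genes, all but Tubb6 and Tppp3, were in the RefSeq promoter collection used here. Each had 250 bases before and 50 bases after the start and was searched on both strands for 5 motifs. CCAAT, the NF-Y box, was in 4 of 8 (Tubb4b, Tuba1a, Tuba1c and Tubb5) and in 37.4% of all 32851 promoters. GGGCGG, the GC box, was in 6 of 8 and in 35.7% of all, and TATAAA in 2 of 8 (Tubb4b and Tubb2a) and 13.6% of all. CATTCC, the core bound by TEAD factors, was in Tubb5 alone and in 14.7% of all promoters. CANNTG, the E-box of myogenic factors, was in 8 of 8 and in 72.3% of all. CCAAT was in neither of the muscle isotypes Tuba4a and Tuba8, nor in Tuba1b and Tubb2a. No motif of the 5 contains another.

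Outside the set, 154 of 156 genes of 8 lists that make, fold, modify, bind, cut, nucleate or move along microtubules were found in the table, and 128 were tested in the same fit. None had an adjusted p under 0.05 in limma. At an unadjusted p under 0.05 there were 10 lower (7.81% of those tested, against 7.18% of all genes) and 12 higher (9.38% against 7.0%) in Nup210-/-. The estimate was lower for 58 and higher for 70, and the median log2 fold change was 0.01. The groups did not overlap for 9 genes lower (7.03%, against 4.6% of all genes) and 8 higher (6.25%, against 4.78%).

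Of 12 other tubulins 6 were tested, 4 with a lower and 2 with a higher estimate. Tubb4a, a brain isotype, had a log2 fold change of −0.46 (limma adjusted p = 0.252) at 0.79 and 1.61 TPM in Nup210-/- and Nup210+/+. Tubb2b was at −0.39 (adjusted p = 0.372), and Tubg2, a gamma tubulin of the nucleating ring, at 0.39 (adjusted p = 0.310). The gamma tubulin most expressed here, Tubg1, was at 15.5 and 17.4 TPM with a log2 fold change of −0.07, and Tubd1, a delta tubulin of centrioles, was at 0.06. Both paralogs of Tppp3 had lower estimates: Tppp, known from oligodendrocytes, was at 4.86 ± 1.07 and 7.77 ± 1.5 TPM with a log2 fold change of −0.51 (adjusted p = 0.256), and Tppp2 at −0.39 (adjusted p = 0.575).

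Of 23 genes that fold tubulin or tune its own mRNA, all tested, 14 had a lower and 9 a higher estimate, with a median log2 fold change of −0.03. Cct3, a subunit of the chaperonin that folds new tubulin, was at 67.2 ± 3.86 and 87.6 ± 4.15 TPM, without overlap, with a log2 fold change of −0.28 (limma adjusted p = 0.154). Tbca, a cofactor that holds beta tubulin, was at −0.18 (adjusted p = 0.306). In the other direction lay Tbccd1 at 0.22 (adjusted p = 0.353) and Arl2, a small GTPase of dimer assembly, at 0.13 (adjusted p = 0.379). Pfdn5, the prefoldin subunit with the highest level of the list, was at 0.01. Of 26 modifying enzymes 17 were tested, 5 with a lower and 12 with a higher estimate. Ttll7, which adds glutamate chains mainly to beta tubulin, was at 55.7 ± 4.22 TPM in Nup210-/- and at 46.4 ± 1.69 TPM in Nup210+/+, without overlap, with a log2 fold change of 0.35 (adjusted p = 0.121). The vasohibin Vash1 was at −0.20 (adjusted p = 0.562) and its partner Svbp, with which it removes the terminal tyrosine of alpha tubulin, at −0.23 (adjusted p = 0.514). Agtpbp1, which trims glutamates, was at 0.11 and Sirt2, a deacetylase, at 0.08.

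Proteins that bind microtubules gave 11 lower and 14 higher estimates of 25 tested. Mapt (tau) was at 37.7 ± 2.95 TPM in Nup210-/- and at 30.1 ± 2.08 TPM in Nup210+/+, without overlap, with a log2 fold change of 0.41 (limma adjusted p = 0.110). Map4, the main such protein of muscle and the most expressed of the list, was at 216.9 ± 7.04 and 194.4 ± 11.1 TPM with a log2 fold change of 0.25 (adjusted p = 0.183), and Map7d1 was at 0.21 (adjusted p = 0.154). Mapre2, a plus-end protein, was at −0.33 (adjusted p = 0.186), and Map7 at −0.18 (adjusted p = 0.471). Severing and destabilizing proteins gave 8 lower and 3 higher estimates of 11 tested, among them Stmn2 at −0.31 (adjusted p = 0.226), Katna1, the cutting subunit of katanin, at −0.23 (adjusted p = 0.248), Spast at 0.17 (adjusted p = 0.365) and Kif2a at 0.13 (adjusted p = 0.465). The point furthest left in the plot of the lists is Stmn1, a destabilizer of dividing cells, named after its values were seen. It was at 2.18 to 3.19 TPM in Nup210-/- and at 2.21 to 41.2 TPM in Nup210+/+, and its log2 fold change went from −1.08 to −0.28 without Nup210+/+ replicate 2.

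Nucleation and organizing-center genes, all 15 tested, gave 6 lower and 9 higher estimates, from Cep192 at −0.26 (limma adjusted p = 0.552) and Tubgcp6 at −0.08 (adjusted p = 0.789) to Nedd1 at 0.16 (adjusted p = 0.339) and Pcnt at 0.17 (adjusted p = 0.396). Mzt1, the most expressed of them, was at 0.08. Motors gave 8 lower and 21 higher estimates of 29 tested. Dynll1, a light chain of dynein that serves other complexes too, was at 54.4 ± 2.77 TPM in Nup210-/- and at 88.5 ± 13.5 TPM in Nup210+/+, without overlap, with a log2 fold change of −0.59 (adjusted p = 0.0825). It was −0.50 without Nup210+/+ replicate 2. Dctn5, of dynactin, was at −0.14 (adjusted p = 0.389), Klc2, a kinesin light chain, at 0.18 (adjusted p = 0.197), Dync1li1 at 0.18 (adjusted p = 0.291), and Kif1c, the most expressed motor, at 0.18 (adjusted p = 0.487).

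**Figure D5:**
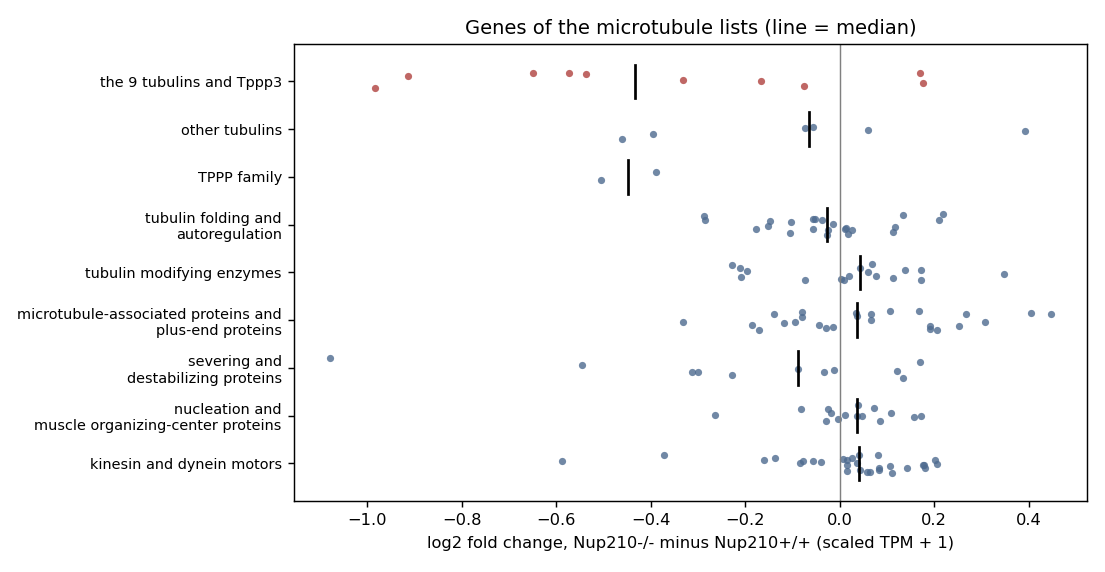
Log2 fold change (horizontal axis, Nup210-/- minus Nup210+/+) of each tested gene, 1 point per gene, for the 9 tubulins and Tppp3 (red) and for the 8 microtubule lists (blue), with the median of each as a line. The red points reach from −0.98 to 0.18 around a median of −0.43, while the 128 genes of the lists have a median of 0.01 and no adjusted p under 0.05.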

How the data were processed

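Quadriceps RNA of 4 Nup210-/- and 4 Nup210+/+ mice was sequenced as 1 directional library per mouse. Per the labels and methods, the authors trimmed reads with cutadapt 2.3, aligned them to mm10 with STAR 2.7.0d and estimated expression with RSEM 1.3.1 on Ensembl annotation. The authors deposited these estimates as TPM, from which depth cannot be recovered. The counts behind their own comparison were not analysed here.

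TPM were scaled by the median of ratios over 15225 genes above 0 in every library (factors 0.936 to 1.12). Log2(scaled TPM + 1) of the 14229 genes whose TPM averaged 0.5 or more was fitted in limma 3.58.1 (R 4.3.3) with genotype as the only term, an intensity trend and Benjamini-Hochberg adjustment over all genes, after a test on simulated data. Replicates are separate mice. The 10 genes, the lists and the markers were chosen with earlier results of these data known. The text names every gene of the set and, of each list, those called, the 2 with the lowest p in each direction and the most expressed, and the 5 genes most like Tuba1a, Tuba1b and Tppp3. Identity, shared windows and coordinates were computed from GENCODE M21, which is not the Ensembl release the authors used, and promoters are from RefSeq. Alternatives were other pseudocounts (0.1, 0.5), filters, scalings, library weights, a replicate block, summed alpha genes, ratios of means and each library left out.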

Additional observations from a re-analysis of the deposited data

Results flagged for a closer look

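In 28 groups of 4 libraries (the 10 genes, the alpha sum, the beta sum and 2 ratios, by genotype) both extremes were set against their nearest neighbour, and 3 stood far from the others by Dixon's test, where chance gives about 1 in 20, or 1.4 of 28. Tuba1a in Nup210-/- replicate 1 was at 39.5 TPM where its fellow knockout libraries were at 41.97 to 42.29 TPM, a gap of 0.885 of the group's range, although that range is narrow. Tuba8 in Nup210+/+ replicate 2 was at 113.91 TPM against 132.99 to 135.46 TPM, a gap of 0.885. The ratio of Tuba1b to Tuba1a in Nup210+/+ replicate 2 was 1.80 against 0.757 to 0.861, a gap of 0.9. The last 2 come from the library that carried 381.69 TPM of granulocyte precursor markers. Both TPM gaps, of Tuba1a and Tuba8, are on TPM as deposited and were not examined on scaled TPM, where they can differ. The ratio of Tuba1b to Tuba1a does not depend on the scale.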

How the results depend on the processing

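With all choices as described, limma called 16 genes of all those tested. The count was 1 with every gene above 0 in any library, 27 with a mean TPM of at least 1, 84 with library weights and 0 with the replicate block. Without 1 library each it ran from 0 to 10: 0 without Nup210-/- replicate 1, 3 or 4, 1 without Nup210-/- replicate 2, 2 without Nup210+/+ replicate 1, 2 or 3 and 10 without Nup210+/+ replicate 4. The other alternatives stayed within 1.5 times (12 to 22). Of the 10 genes, given as a description, Tppp3 passed with all libraries, with both smaller pseudocounts and on deposited TPM, Tppp3 and Tuba1a with the higher minimum and with library weights, Tuba1a alone without Nup210+/+ replicate 4, and none in the other alternatives. The motors had 1 called gene with library weights. Otherwise the lists had 0 in every alternative. With 1 library left out, the median log2 fold change of the 10 genes ran from −0.47 (without Nup210-/- replicate 2) to −0.33 (without Nup210+/+ replicate 2). On deposited TPM it was −0.52, and 8 of 10 estimates were lower in Nup210-/- in every fitted alternative. Of 173 alternative log2 fold changes of single genes, 169 moved by less than the spread between replicates and none reversed. The others were Tubb6 on deposited TPM (−0.17) and by ratio of means (−0.18), Tuba1c by ratio of means (−1.86) and Tuba1a replaced by the sum of 3 genes (−0.82). The spread itself includes Nup210+/+ replicate 2 and was 0.835 for Tuba1c and 0.363 for Tubb5. Moves counted as smaller than it include those without that library, of Tuba1c from −0.98 to −0.47 and of Tubb5 from −0.54 to −0.28. The difference of the mean alpha sums, Nup210-/- minus Nup210+/+, was −33.1 on deposited and 19.5 on scaled TPM, an alternative added after seeing the data.

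The replicate block gave 0 calls. Libraries with the same number correlated at −0.0329 to 0.0857 in their deviations from the group means and come from different mice, so the numbers do not pair them. Depth is unknown, so low genes such as Tuba1c have an unknown counting error.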
